A study of Mus musculus with 6 samples.

Results

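The genes described here are 9 markers of the projection neurons of the deep cortical layers, layers 5 and 6: Tbr1, Fezf2, Tle4, Etv1, Hs3st4, Syt6, Rprm, Crym and Pcp4. They were taken by name from the 54658 genes listed in each count file, and all 9 passed the expression filter that left 17563 genes for testing. The libraries hold bulk RNA of the nucleus accumbens, a part of the ventral striatum, from male C57BL6 mice, which the labels give as adults aged 8 weeks. In 3 libraries (Gas5 A, B and C) the tissue had been injected with a herpes simplex virus vector, p1005+, that carries EGFP and Gas5, a long noncoding RNA. In the other 3 (GFP A, B and C) the same vector carried EGFP alone. The sources used here do not say how many animals went into a sample, how much of the tissue the vector reached, or how long after injection it was dissected. Levels are CPM, the counts of a gene relative to its library total after TMM scaling, and a gene was called at an edgeR adjusted p under 0.05 over all 17563 genes.

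The deep layers hold the neurons that send the output of the cortex to the thalamus, brainstem, spinal cord and striatum. Layer 6 neurons that project to the thalamus are set apart during development by Tbr1, and layer 5 neurons that project below the cortex by Fezf2. Cortical projection neurons are glutamatergic, whereas medium spiny neurons, which make up most of the accumbens, are GABAergic. Some of the 9 genes are also active in other brain cells, and Crym and Pcp4 in particular are known in striatal neurons. In bulk tissue, fewer cells of a type and less RNA per cell cannot be told apart.

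Total counts ranged from 38605056 to 42524874 in the Gas5 libraries and from 32359052 to 56081575 in the GFP libraries. Gas5, the delivered RNA, was at 23.2 CPM ± 0.545 in Gas5 libraries and 17.8 CPM ± 1.15 in GFP libraries (SD, n = 3 each), 1.30-fold higher with an adjusted p of 0.0163, and 26.6% of its span is shared with other listed genes and not counted. The tissue was checked with 16 medium spiny neuron genes. All 16 were tested, their summed level was 6372 to 7905 CPM in Gas5 libraries and 7081 to 8027 CPM in GFP libraries, and 1 of them was called.

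Of the 9 deep layer genes, 1 fell in the Gas5 libraries, Tbr1, and 1 rose, Crym. Over all tested genes 3.96% were called lower and 1.48% higher, 5.44% in all. The other 7 were not called, with log2 fold changes between -1.33 for Fezf2 and 0.14 for Syt6. The median log2 fold change of the 9 genes was -0.46, against 0.02 over all tested genes, with 6 values below 0 and 3 above. The number called lower was sensitive to the method: edgeR called 1 as set out above and DESeq2 called 5. Over all 17563 tested genes edgeR called 695 lower and DESeq2 996. At an unadjusted p under 0.05 6 were lower and 1 was higher, where the shares of all tested genes were 11.2% and 10.2%. In 5 of the 9 genes every Gas5 library lay below every GFP library, and in 2 every Gas5 library lay above, as was the case for 13.9% and 13.8% of all tested genes.

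**Figure D1:**
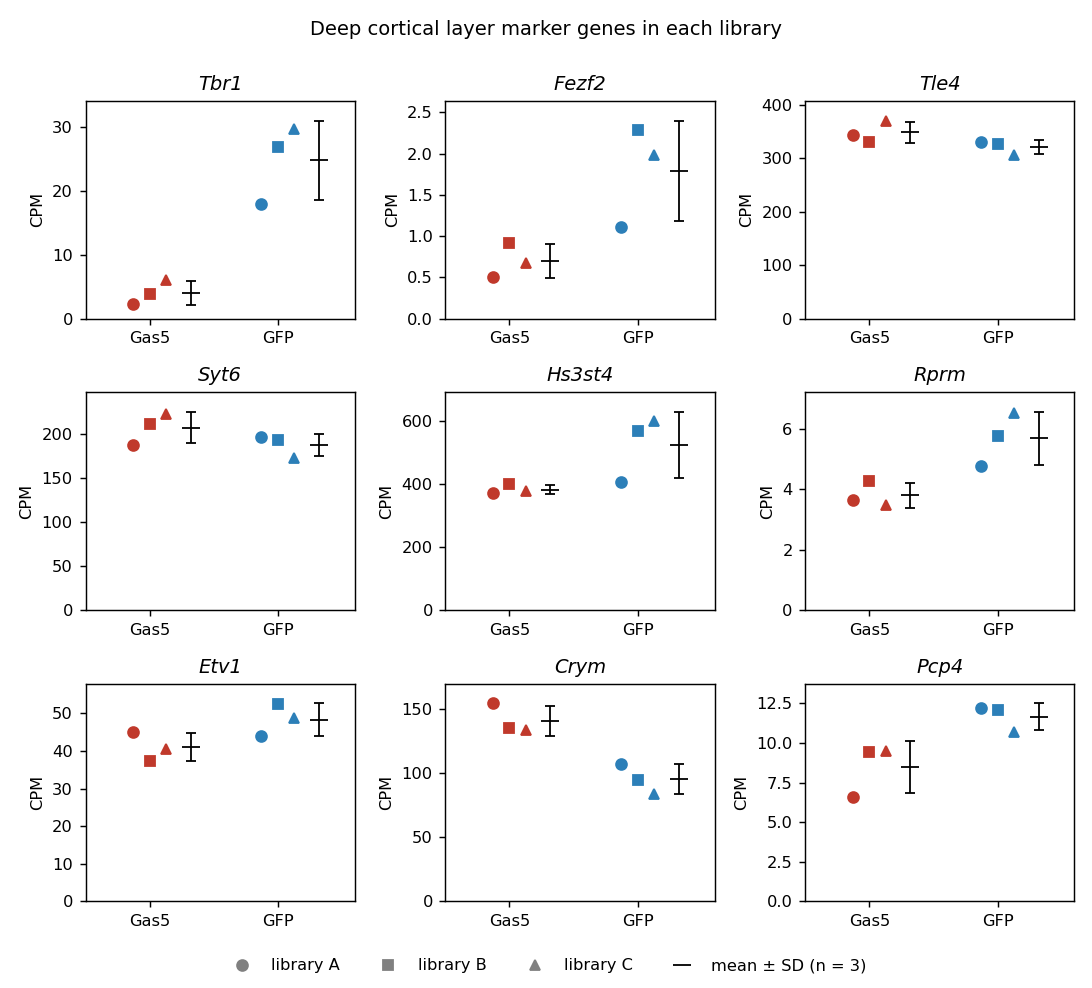
CPM of the 9 deep layer genes in the 3 Gas5 libraries (red) and the 3 GFP libraries (blue), with the mean and SD of each group in black; each panel has its own linear axis from 0. Tbr1 is far lower and Crym higher in all 3 Gas5 libraries, whereas the libraries of the groups overlap for Syt6 and Etv1.

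The transcription regulators of the list differed in size and sign. Tbr1 encodes a T-box transcription factor of layer 6 and subplate neurons. Its span on chromosome 2 (61802930 to 61814114, plus strand, build GRCm38) shares no base with another listed gene, and 49% of it is exon. It had 96, 166 and 234 counts in Gas5 libraries A to C, which is 2.23, 3.88 and 6.04 CPM, against 994, 1036 and 945 counts, or 17.9, 26.9 and 29.7 CPM, in GFP libraries A to C. The lowest GFP library was far above the highest Gas5 library, so the groups lay well apart although each had a wide spread. The means were 4.05 CPM ± 1.91 in Gas5 libraries and 24.8 CPM ± 6.19 in GFP libraries (SD, n = 3 each), 6.14-fold lower. On the log2 scale this was -2.62 (95% interval -3.33 to -1.91, adjusted p 0.00642), and Tbr1 was 51st of all tested genes by p. The call held with any 1 library left out, with adjusted p between 0.00465 and 0.0398.

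Fezf2 encodes a zinc-finger transcription factor that directs layer 5 neurons to their subcortical targets. It lies on chromosome 14 from 12342094 to 12348189 on the minus strand and was the scarcest of the 9, with 22, 39 and 26 counts in Gas5 libraries A to C, against 62, 88 and 63 counts in GFP libraries A to C. In CPM this was 0.510, 0.912 and 0.671 for Gas5, against 1.12, 2.28 and 1.98 for GFP. All Gas5 libraries were below all GFP libraries, but GFP A stood closer to Gas5 B than to the other GFP libraries. The means of 0.698 CPM ± 0.202 in Gas5 libraries and 1.79 CPM ± 0.606 in GFP libraries (SD, n = 3 each) gave a log2 fold change of -1.33 (95% interval -2.08 to -0.59). With an adjusted p of 0.0533 it missed the threshold. It was called lower by DESeq2 (adjusted p 0.00423) and without GFP A (log2 fold change -1.61, adjusted p 0.0202). It was not called by limma-voom (adjusted p 0.0941), without GFP B (adjusted p 0.199) or without GFP C (adjusted p 0.179).

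The promoters of these genes are shown because they encode the factors that define the layer 6 and layer 5 projection neurons and both had lower values in every Gas5 library. Each window runs from 250 bases before to 50 bases after the gene's start in RefSeq (build GRCm38.p6), 5′ to 3′ on the gene's strand, for Tbr1 at chr2:61804203-61804502 (plus strand) and for Fezf2 at chr14:12345816-12346115 (minus strand). Both windows lie inside the listed spans of the genes, so the RefSeq starts used here differ from the starts of the counted spans. Capitals mark CG dinucleotides.
Tbr1: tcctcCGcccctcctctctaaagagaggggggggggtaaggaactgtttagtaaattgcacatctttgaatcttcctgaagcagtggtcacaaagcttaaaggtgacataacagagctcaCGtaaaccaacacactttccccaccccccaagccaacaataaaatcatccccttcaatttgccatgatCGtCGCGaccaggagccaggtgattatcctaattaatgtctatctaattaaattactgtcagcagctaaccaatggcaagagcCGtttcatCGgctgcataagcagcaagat
Fezf2: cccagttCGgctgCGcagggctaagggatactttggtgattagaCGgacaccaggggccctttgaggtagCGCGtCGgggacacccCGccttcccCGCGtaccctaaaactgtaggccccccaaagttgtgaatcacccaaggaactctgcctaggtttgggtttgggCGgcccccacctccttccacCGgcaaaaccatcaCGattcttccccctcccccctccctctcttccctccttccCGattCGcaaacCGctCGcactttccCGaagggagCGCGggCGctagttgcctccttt
The Tbr1 window holds 7 CG dinucleotides, and 52.1% of all 32851 promoter windows hold at least as many. The Fezf2 window holds 20, reached by 26.5% of all windows. The letters CAGATG, an E-box form bound by neuronal bHLH factors, were searched on both strands and are in neither window, as are the letters GGTGTGA at the core of the T-box binding site. These motifs do not overlap each other. CAGATG is in 17.2% of all windows and GGTGTGA in 3.98%. Windows were found for 8 of the 9 genes, and among them 1 of the windows of Etv1 holds CAGATG and none holds GGTGTGA.

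Tle4 encodes a Groucho-family corepressor that marks layer 6 neurons projecting to the thalamus. It lies on chromosome 19 from 14448072 to 14598051 on the minus strand, and 3.8% of this span is exon in the annotation used here, so most of its counts could come from introns. It was at 344, 331 and 370 CPM in Gas5 libraries A to C and at 330, 327 and 307 CPM in GFP libraries A to C. The highest GFP library was just below the lowest Gas5 library. With a log2 fold change of 0.12 (95% interval -0.02 to 0.25, adjusted p 0.298) Tle4 was not called.

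Etv1 encodes an ETS-family transcription factor of layer 5 neurons and lies on chromosome 12 from 38779380 to 38870484 on the plus strand. It was at 45.0, 37.5 and 40.5 CPM in Gas5 libraries A to C and at 43.9, 52.5 and 48.7 CPM in GFP libraries A to C. The groups overlapped, since Gas5 A was above GFP A. Etv1 was not called, its log2 fold change being -0.24 (95% interval -0.43 to -0.05, adjusted p 0.146).

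Crym, the gene that rose, encodes mu-crystallin, a protein that binds thyroid hormone in the cytosol. In the cortex it marks deep layer neurons, and it is also known in striatal neurons. It lies on chromosome 7 from 120186380 to 120202111 on the minus strand, shares no base with another listed gene, and had 154, 135 and 133 CPM in Gas5 libraries A to C, against 107, 94.4 and 83.6 CPM in GFP libraries A to C. All Gas5 libraries were above all GFP libraries, with Gas5 A highest and GFP C lowest. The means were 141 CPM ± 11.7 in Gas5 libraries and 95.1 CPM ± 11.8 in GFP libraries (SD, n = 3 each), 1.48-fold higher. On the log2 scale the difference was 0.56 (95% interval 0.35 to 0.78, adjusted p 0.0163). The call was lost without GFP B (0.56, adjusted p 0.0829) and without GFP C (0.48, adjusted p 0.0657).

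Hs3st4 encodes an enzyme that adds sulfate to heparan sulfate chains and is a marker of layer 6 neurons. Its span on chromosome 7, from 123982869 to 124398989 on the plus strand, is the longest of the 9 genes. Only 0.766% of the span is exon, and 25.1% is shared with 3 other listed genes and not counted. It had 370, 399 and 377 CPM in Gas5 libraries A to C, against 405, 567 and 600 CPM in GFP libraries A to C. The Gas5 libraries lay close together, GFP A was just above them, and GFP B and GFP C were far higher. Its log2 fold change was -0.46 (95% interval -0.75 to -0.16, adjusted p 0.0826). It was called lower by DESeq2 (adjusted p 0.00424) and without GFP A (log2 fold change -0.61, adjusted p 0.00475). Limma-voom did not call Hs3st4 (adjusted p 0.0877), and it was not called without GFP B (adjusted p 0.264) or without GFP C (0.270).

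Syt6 encodes a member of the synaptotagmin family of membrane-trafficking proteins and is used as a marker of layer 6 neurons. It lies on chromosome 3 from 103575231 to 103645569 on the plus strand, with 4.09% of the span shared with other genes. It was at 188, 212 and 222 CPM in Gas5 libraries A to C and at 196, 193 and 173 CPM in GFP libraries A to C. The groups overlapped, Gas5 A lying between GFP libraries. Syt6 was not called, with a log2 fold change of 0.14 (95% interval -0.03 to 0.32, adjusted p 0.309).

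Rprm encodes reprimo, a small membrane protein induced by p53 that arrests the cell cycle, and its transcript is a marker of layer 6. The gene has no intron in the annotation, so its counts are exonic, and it lies on chromosome 2 from 54084093 to 54085552 on the minus strand. It had 157, 183 and 135 counts, or 3.64, 4.28 and 3.48 CPM, in Gas5 libraries A to C, against 265, 223 and 207 counts, or 4.77, 5.78 and 6.52 CPM, in GFP libraries A to C. All Gas5 libraries were below all GFP libraries. For Rprm the log2 fold change was -0.57 (95% interval -0.90 to -0.24, adjusted p 0.0582). It was called lower by DESeq2 (adjusted p 0.0150) and without GFP A (log2 fold change -0.69, adjusted p 0.0377). There was no call by limma-voom (adjusted p 0.0783), without GFP B (adjusted p 0.197) or without GFP C (adjusted p 0.197).

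Pcp4 encodes a small protein that regulates calmodulin and is abundant in layer 5, the striatum and Purkinje cells. Its span on chromosome 16, from 96467606 to 96525793 on the plus strand, is covered for 99.6% by the listed gene Igsf5 on the same strand, which ends at 96525580. Reads in such overlaps are absent from these tables. The counts of Pcp4 therefore come from its last 213 bases, from 96525581 to 96525793, which lie in the 3′ untranslated part of its last exon. Measured there, Pcp4 had 283, 402 and 367 counts, or 6.56, 9.40 and 9.47 CPM, in Gas5 libraries A to C, against 678, 466 and 340 counts, or 12.2, 12.1 and 10.7 CPM, in GFP libraries A to C. All Gas5 libraries were below all GFP libraries, and Gas5 A stood apart at the low end. Over these bases the log2 fold change was -0.46 (95% interval -0.78 to -0.15, adjusted p 0.0952), and DESeq2 called it lower (adjusted p 0.0293). Pcp4 was not called by limma-voom (adjusted p 0.0788) or by edgeR with any 1 library left out (adjusted p between 0.0773 and 0.264). Its low CPM says little about the level of the whole transcript.

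Levels of the other 8 genes were compared as CPM per kilobase of counted span, a scale that mixes exons and introns. In the Gas5 libraries Crym was highest at 8.94 ± 0.741 CPM per kilobase, followed by Syt6 at 3.07 ± 0.262, Rprm at 2.60 ± 0.288, Tle4 at 2.32 ± 0.135 and Hs3st4 at 1.22 ± 0.0478 (SD, n = 3 for each). Etv1 at 0.450 ± 0.0415, Tbr1 at 0.362 ± 0.171 and Fezf2 at 0.114 ± 0.0332 were lowest there. In the GFP libraries the order was Crym at 6.04 ± 0.751, Rprm at 3.90 ± 0.601, Syt6 at 2.78 ± 0.185, Tbr1 at 2.22 ± 0.553, Tle4 at 2.14 ± 0.0837, Hs3st4 at 1.68 ± 0.333, Etv1 at 0.531 ± 0.0472 and Fezf2 at 0.294 ± 0.0994. Neighbours whose libraries overlapped were Syt6 and Rprm, Rprm and Tle4, and Etv1 and Tbr1 in the Gas5 group, and Syt6 and Tbr1, and Tbr1 and Tle4, in the GFP group. By its mean Tbr1 stood between Etv1 and Fezf2 in Gas5 libraries, and between Syt6 and Tle4 in GFP libraries.

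Around their own means the 9 genes varied to very different degrees. The coefficient of variation within a group was 47.2% in Gas5 and 24.9% in GFP libraries for Tbr1, and 29.0% in Gas5 and 33.8% in GFP libraries for Fezf2. It was 5.80% in Gas5 and 3.91% in GFP libraries for Tle4, and 8.53% in Gas5 and 6.67% in GFP libraries for Syt6. Likeness of pattern was measured as the root mean square difference of centred log2 CPM over the 6 libraries. The genes of the list most like each other were Tle4 and Syt6 at 0.0725 and Rprm and Hs3st4 at 0.0952. Among 12819 other genes with a mean of at least 1 CPM, the closest to Tbr1 were Scube1 at 0.0585, Nrn1 at 0.123 and Neurod2 at 0.129. Scube1, which encodes a secreted and cell-surface protein, was at 4.06, 7.71 and 11.1 CPM in Gas5 libraries A to C and at 33.3, 51.2 and 54.8 CPM in GFP libraries A to C. The closest to Fezf2 were Reln at 0.0644, Fam205c at 0.0943 and Cdh13 at 0.129. Reln, which encodes the secreted protein reelin, was at 102, 146 and 129 CPM in Gas5 libraries A to C and at 181, 274 and 261 CPM in GFP libraries A to C.

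**Figure D2:**
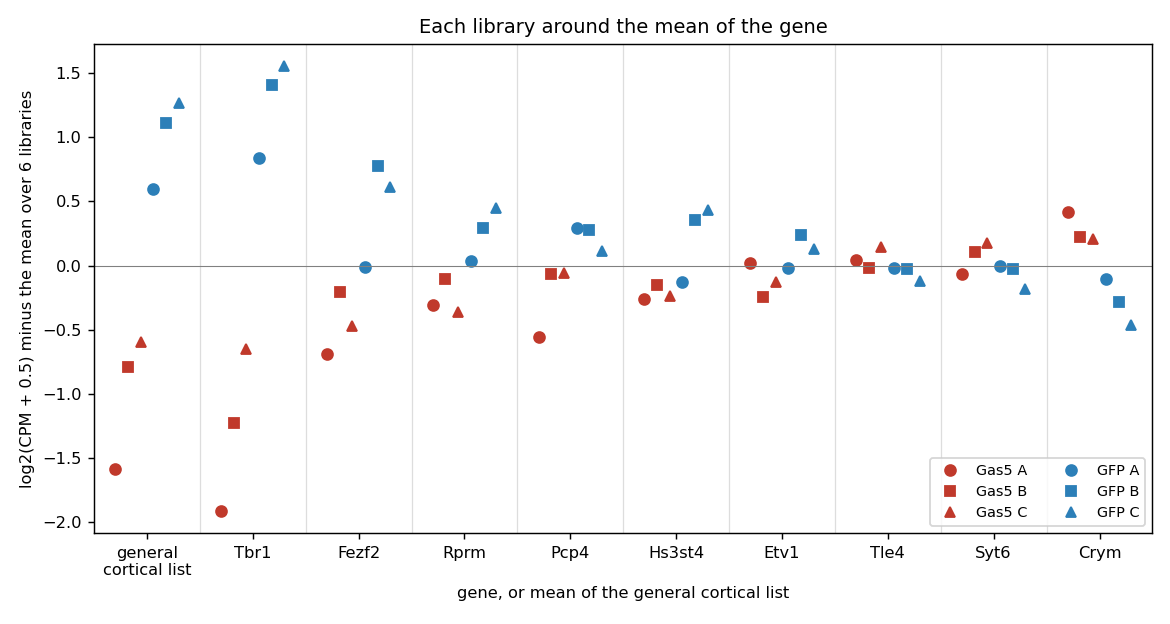
For the general cortical list (mean of its genes) and for each deep layer gene, log2(CPM + 0.5) of every library minus the mean over the 6 libraries; red points are Gas5 and blue points GFP libraries, and the marker shape gives the library letter. Tbr1 spreads as widely as the general list, the other 8 genes far less, and Crym runs the opposite way.

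The deep layer genes were set beside a list of 12 genes that mark cortical projection neurons of any layer, among them Slc17a7, the vesicular glutamate transporter, and the transcription factor genes Neurod2 and Neurod6. Of its 11 tested genes 10 fell and 0 rose, with a median log2 fold change of -2.83, and the summed level was 268 to 383 CPM in Gas5 libraries and 580 to 838 CPM in GFP libraries. None of the 11 was at 0, and the lowest mean over the 6 libraries was 1.67 CPM. Bdnf, a neurotrophin gene, fell 7.81-fold and Nrn1, a neuritin gene, 7.12-fold, with adjusted p of 0.00473 and 0.00642. Itpka, a kinase gene, was the member not called, with a log2 fold change of 0.06. Without GFP B 5 of them were called lower, and without GFP C 3. The list averaged 1.90, 2.69 and 2.89 on the log2 CPM scale in Gas5 libraries A to C and 4.09, 4.60 and 4.75 in GFP libraries A to C, with no overlap.

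Tbr1 was the deep layer gene that fell with this list. Relative to the list's mean in the same library, Tbr1 was at -0.45, -0.56 and -0.18 on the log2 scale in Gas5 libraries A to C and at 0.12, 0.17 and 0.17 in GFP libraries A to C, a difference of -0.55. Such a difference, lower with no overlap, was found in 13 of all tested genes, or 0.074%. The other 8 deep layer genes were higher relative to the list in every Gas5 library than in every GFP library, with differences between 1.07 for Fezf2 and 2.55 for Crym, but so were 99.7% of all tested genes. With 3 against 3 libraries no exact permutation test of these values can go below p = 0.1. With the list's mean as a covariate in the edgeR fit none of the 9 genes was called, and the log2 fold changes were -0.21 for Tbr1, 0.57 for Fezf2 and -0.038 for Crym. The list's mean separates the groups completely, so the difference between vectors and the difference in cortical marker level cannot be told apart in these libraries.

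**Figure D3:**
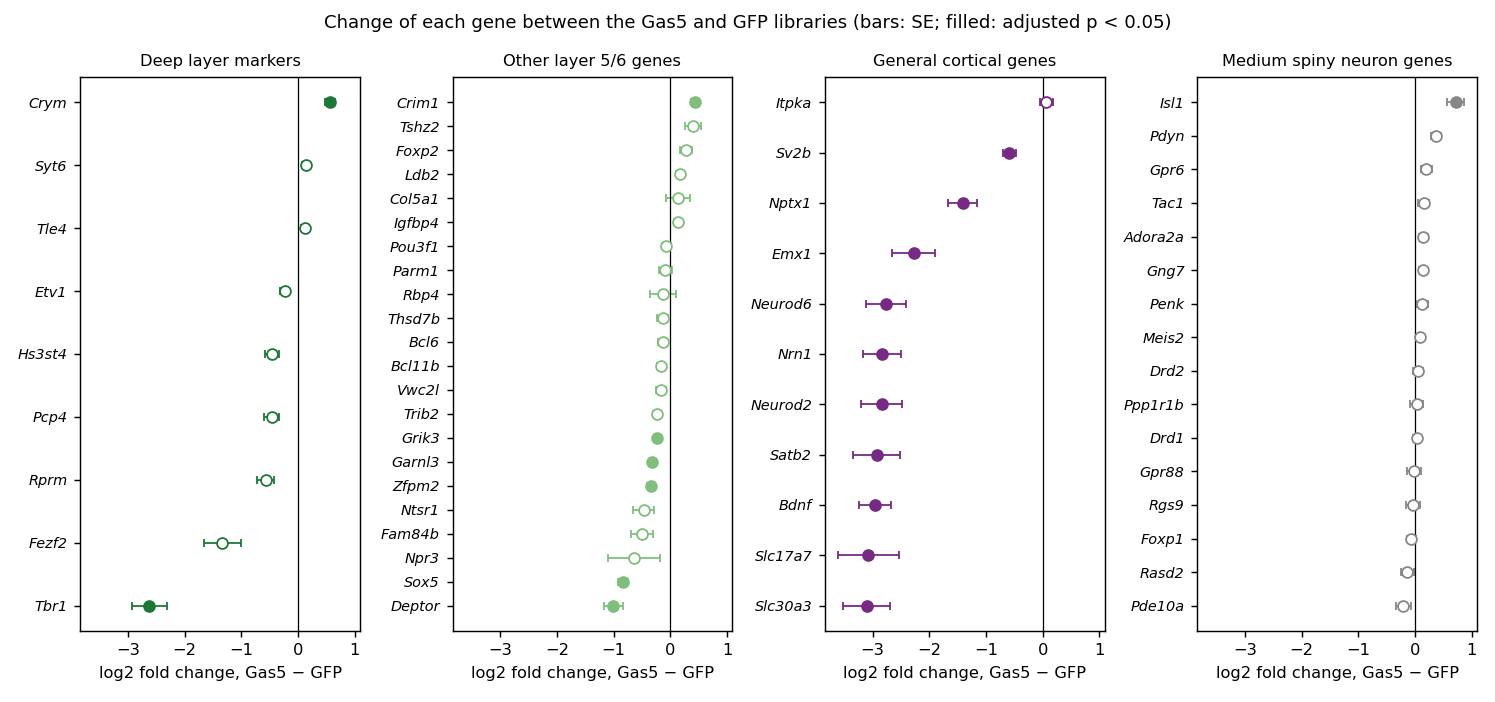
Log2 fold change, Gas5 minus GFP, of the deep layer genes and of the tested genes of 3 other lists; bars are standard errors and filled points have an edgeR adjusted p under 0.05. Of the general cortical genes 10 are filled and below 0. Among the deep layer genes Tbr1 is filled below 0 and Crym is filled above 0, at 0.56. Isl1 is the filled one of the 16 medium spiny neuron genes, at 0.71.

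A wider list of 24 genes used for neurons of layers 5 and 6 also held genes called in each direction. Of 22 tested genes 5 fell and 1 rose, and the median log2 fold change was -0.15, with values from -1.01 to 0.43. Sla and Osr1 were not tested, and the whole span of Sla lies within another listed gene, so its reads are not counted. Sox5, a transcription factor gene of deep layer neurons, was at 95.2, 90.3 and 101 CPM in Gas5 libraries A to C, against 150, 165 and 194 CPM in GFP libraries A to C, 1.78-fold lower with an adjusted p of 0.00516. Garnl3, which encodes a GTPase-activating-like protein, fell 1.25-fold (adjusted p 0.0154). Deptor, an inhibitor of mTOR, Zfpm2, a cofactor of GATA factors, and Grik3, a kainate receptor subunit, also fell, with log2 fold changes of -1.01, -0.34 and -0.24. Crim1, a transmembrane regulator of BMP signalling, rose with a log2 fold change of 0.43. Ntsr1, the neurotensin receptor that marks layer 6 neurons projecting to the thalamus, was at 2.81, 2.03 and 1.75 CPM in Gas5 libraries A to C and at 3.02, 3.32 and 2.80 CPM in GFP libraries A to C, with an adjusted p of 0.189. For Foxp2, a forkhead factor gene of layer 6 that medium spiny neurons also transcribe, the log2 fold change was 0.28 (adjusted p 0.174). With Gas5 A left out 3 genes of this list were called lower, and with GFP B or GFP C left out 1 was called lower and 0 higher. Deptor, Zfpm2, Crim1, Grik3, Ntsr1 and Foxp2 were picked for description after their values were seen.

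Other lists place these values. Of 9 claustrum and layer 6b genes 5 fell, with a median log2 fold change of -1.56. Smallest in p were Nr4a2, an orphan nuclear receptor gene, 11.6-fold lower, and Ntng2, a netrin-family gene, 2.96-fold lower, and Ctgf, Cplx3 and Nxph4 lay between them in fold. Without GFP B or without GFP C 2 of them were called. Of 11 tested upper layer genes 1 fell, Rorb, a nuclear receptor gene of layer 4, with a log2 fold change of -0.45, while Plxnd1, a plexin gene, had -0.54 and an adjusted p of 0.0551. The upper layer median was -0.21, and without GFP B or without GFP C no gene of that list was called. Isl1 rose among the 16 medium spiny neuron genes, whose median was 0.07, but its call was lost with either Gas5 A or Gas5 C left out, and with either GFP B or GFP C left out (adjusted p up to 0.145). In the same list Pdyn was at 0.37 on the log2 scale (adjusted p 0.0551). Summed levels were 291 to 311 CPM in Gas5 libraries and 361 to 445 CPM in GFP libraries for the claustrum list, and 653 to 759 CPM in Gas5 libraries and 755 to 822 CPM in GFP libraries for the upper layer list.

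Among lists for other cells, 2 of 8 tested septal, pallidal and olfactory genes fell, Cdhr1 and Trpc4, and of 8 interneuron genes Vip fell and Gad2 rose. Log2 fold changes of the septal, pallidal and olfactory list were below 0 for 5 genes. They were above 0 for Lhx8 (0.75, edgeR adjusted p 0.106), Nkx2-1 (0.44) and Lhx6 (0.12). Of 7 tested astrocyte genes Aqp4 rose while Aldh1l1 had an adjusted p of 0.0806, of 8 oligodendrocyte genes Aspa fell while Mbp had 0.0838, and of 6 endothelial genes Flt1 fell while Slco1a4 had 0.102. Of 7 tested microglia genes edgeR called 0, with 4 higher at an unadjusted p under 0.05, DESeq2 called 3 higher and limma-voom 1, and C1qa and Aif1 had log2 fold changes of 0.35 and 0.55. The calls of Cdhr1, Trpc4, Vip, Gad2, Aqp4, Aspa and Flt1 were all lost without GFP B and without GFP C (adjusted p up to 0.191). Leaving out other libraries also ended calls: Aqp4, Aspa and Flt1 without Gas5 A, Gad2, Aspa and Flt1 without Gas5 B, Trpc4, Gad2, Aqp4 and Aspa without Gas5 C, and Trpc4 and Flt1 without GFP A. Summed levels did not overlap for interneurons (926 to 1057 CPM in Gas5 libraries, 846 to 916 CPM in GFP libraries), microglia (314 to 346 CPM in Gas5 libraries, 265 to 295 CPM in GFP libraries), oligodendrocytes (1577 to 2001 CPM in Gas5 libraries, 2045 to 2223 CPM in GFP libraries) and endothelium (184 to 197 CPM in Gas5 libraries, 202 to 211 CPM in GFP libraries). Gad1 and Gad2 dominated the interneuron sum, averaging 348 and 575 CPM in Gas5 libraries and 341 and 464 CPM in GFP libraries. Log2 fold changes of the 8 interneuron genes were below 0 for Vip (-1.47), Pvalb (-0.88), Sst (-0.28) and Npy (-0.19), and above 0 for the other 4. Flt1 and Slco1a4 dominated the endothelial sum, averaging 79.1 and 59.5 CPM in Gas5 libraries and 91.1 and 67.6 CPM in GFP libraries. The other 4 endothelial genes had log2 fold changes above 0, and the median of that list was 0.0088. No tested gene of these lists was at 0 on average. Whether these cell-type differences take part in the values of the deep layer genes was not tested.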

How the data were processed

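Per the labels' protocols, total RNA was depleted of ribosomal RNA and the kit keeps strand. GRCm38.p6 is the build named in the submitters' processing notes, beside edgeR 3.20.9, featureCounts 1.5.0-p3, STAR 2.7.0, Trim Galore 0.4.4 and bcl2fastq 1.8.4. The authors deposited unnormalized read counts for each gene. The listed length equals the whole gene span, so intronic reads are counted. Of 7463 genes over 500 bases that lie within another listed gene, 0 had a count, so reads in overlaps are absent. The sources used here do not state the settings for strand and overlaps. Some of these genes lie on the strand opposite to the gene around them, such as Sla within Tg and P2ry12 within Med12l. Counting by strand would have kept their reads, so the counts appear to disregard strand. Exons were taken from GENCODE M21, in which 8 of the 9 genes have the coordinates of the files.

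The test was that of edgeR 4.0.16 under R 4.3.3 (default expression filter, TMM, quasi-likelihood F-test over both groups, 2-sided, Benjamini-Hochberg). Logarithms of CPM use a pseudocount of 0.5. Each standard error is |log2 fold change| over the root of F, and the 95% intervals use the degrees of freedom of that test. Pairs of same-group libraries had a chi-square per degree of freedom of 5.05 to 25.4, beyond counting noise, so each was used as a replicate. Since the labels name no animals, a p-value covers only the spread between samples. DESeq2 1.42.0, limma-voom 3.58.1, other scalings, filters and thresholds, robust dispersion, a block for the library letter, a cortical score as a covariate and leaving out each library were tried as alternatives. The genes and the 11 other lists were chosen with earlier results of these data known. From each other list the 2 genes of smallest p are named, and for Tbr1 and Fezf2 the 3 genes of most similar pattern; placeholder symbols were left out.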

Additional observations from a re-analysis of the deposited data

How the results depend on the processing

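Tbr1 was called lower under every alternative other than the general cortical score as a covariate, where its log2 fold change was -0.21. With that covariate 0 deep layer genes were called in either direction, as were 0 genes higher and 0 lower over all genes (407 at an unadjusted p under 0.05), and Gas5 was at 0.39 on the log2 scale (adjusted p 1.0). Signs turned with it, none called, for Fezf2 (0.57), Hs3st4 (0.16), Crym (-0.038), Pcp4 (0.12), Plxnd1 (0.35), Isl1 (-0.12), Vip (0.026), Aqp4 (-0.17), Aldh1l1 (-0.39), Aspa (0.023), Mbp (0.17), Slco1a4 (0.00817), Reln (0.23) and Fam205c (0.094). Against 1 deep layer gene called lower by edgeR, there were 5 without the expression filter, with DESeq2 and at a threshold of 0.10, and 2 with robust dispersion. At a threshold of 0.01 none was called higher. Over all genes edgeR called 260 higher and 695 lower. Without the filter, with 28611 genes tested, 656 were higher and 1002 lower. DESeq2 gave 495 higher and 996 lower, and robust dispersion 249 higher and 692 lower. The threshold of 0.01 gave 3 higher and 97 lower, and that of 0.10 gave 661 and 1086. Leaving out 1 library gave 1 to 4 deep layer genes lower and 0 to 1 higher, 3 to 250 genes higher and 89 to 608 lower over all genes, and a log2 fold change of Gas5 from 0.33 to 0.42, its call being lost without GFP B (adjusted p 0.0715) or GFP C (0.0687). The causes were not tested. The samples share only a letter: deviations of same-letter libraries correlated at 0.16, 0.18 and -0.09 for A, B and C. With the letter as a block 4 deep layer genes were lower, and over all genes 510 were higher and 928 lower. Among the other lists DESeq2 called 3 upper layer and 3 oligodendrocyte genes lower (edgeR 1 each), and 2 medium spiny neuron, 2 astrocyte and 3 microglia genes higher (edgeR 1, 1 and 0). Among the 9 deep layer genes Fezf2 had the fewest counts, as few as 22 in a library.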
